A study of Mus musculus with 20 samples.

Results

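The genes described here are 6 transcripts of the fetal liver, *H19*, *Igf2*, *Afp*, *Gpc3*, *Igf2bp3* and *Cd24a*, taken by symbol from a table of 50559 genes counted in 20 mouse livers. They were picked after their values in these livers had been seen, so their levels and fold changes are given as a description. Tests are given only for other genes. The lists of those genes were also chosen with earlier results of these data known. Their p-values and counts are thus a description too, and not independent evidence. All mice were C57BL/6 *Cideb* fl/fl, in which loxP sites flank an exon of *Cideb*, a gene for a lipid droplet protein. WT mice received AAV-TBG-GFP and KO mice AAV-TBG-Cre, a virus in which the hepatocyte-specific TBG promoter drives the Cre recombinase, so that other liver cells kept the gene. The mice were then fed a Western diet (WD) or CDA-HFD, with 5 livers in each of the 4 groups of vector and diet. WD was rich in sugar, fat and cholesterol and came with sugar water. CDA-HFD is a high-fat diet that lacks choline and has L-amino acids in place of protein. The study's methods describe it as deficient in methionine too. The labels give 3 months on either diet, whereas the study's text gives a longer time on WD than on CDA-HFD, so diet and time on diet cannot be told apart. The labels do not give ages, and no liver came from a mouse on normal chow.

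Fetal hepatocytes make a set of transcripts that fall steeply after birth and that can return in regenerating, chronically injured and cancerous livers. *H19* is a noncoding RNA expressed from the maternal chromosome and the host of miR-675, and its neighbor *Igf2*, a growth factor gene, is expressed from the paternal chromosome. *Afp* encodes alpha-fetoprotein, the main albumin-like protein of fetal serum, *Gpc3* a heparan sulfate proteoglycan of the cell surface, *Igf2bp3* an RNA-binding protein named for its binding to *Igf2* mRNA, and *Cd24a* a small cell surface glycoprotein that also marks bile duct and liver progenitor cells. In mice, the zinc finger and homeobox protein Zhx2 and the zinc finger protein Zbtb20 are known repressors of *Afp* after birth, and Zhx2 also acts on *H19* and *Gpc3*.

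The genes lie on 5 chromosomes of the mm10 (GRCm38) assembly, with positions from GENCODE vM21. *H19* (ENSMUSG00000000031.16), a lincRNA of 2460 exonic bases, spans chr7:142575529-142578143 on the minus strand. *Igf2* (ENSMUSG00000048583.16) follows on the same strand at chr7:142650766-142666816. *Afp* (ENSMUSG00000054932.6) lies at chr5:90490737-90508907 on the plus strand, and *Gpc3* (ENSMUSG00000055653.13) at chrX:52272426-52613950 on the minus strand. *Igf2bp3* (ENSMUSG00000029814.10) lies at chr6:49085223-49214957 on the minus strand and *Cd24a* (ENSMUSG00000047139.9) at chr10:43578284-43584265 on the plus strand.

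The mature miR-675 sequences are shown because *H19*, the gene that separated the KO from the WT livers on CDA-HFD, carries them in an exon (RefSeq, GRCm38.p6). They lie at chr7:142577112-142577133 for the 5p arm and chr7:142577078-142577099 for the 3p arm, on the minus strand, and the capitals mark the seed, bases 2 to 8. No other mature mouse miRNA in the RefSeq table had either seed.
mmu-miR-675-5p: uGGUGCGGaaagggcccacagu
mmu-miR-675-3p: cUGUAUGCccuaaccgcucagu
The hairpin has its own entry in the count table, *Mir675*, which was listed at 0 reads in all 20 livers. These libraries were not made for small RNAs, so the mature miRNAs were not measured.

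The promoters of *Afp* and *Gpc3* are shown because both genes were higher on CDA-HFD in WT livers while their promoters differ in base composition. Each window runs from 250 bases before to 50 after the RefSeq start, 5′ to 3′ along the gene's strand, at chr5:90490464-90490763 (plus strand) for *Afp* and chrX:52613925-52614224 (minus strand) for *Gpc3*. Capitals mark matches, on either strand, to the TATA box letters TATAAA and the SP1 box GGGCGG, which reads CCGCCC on the other strand.
Afp promoter: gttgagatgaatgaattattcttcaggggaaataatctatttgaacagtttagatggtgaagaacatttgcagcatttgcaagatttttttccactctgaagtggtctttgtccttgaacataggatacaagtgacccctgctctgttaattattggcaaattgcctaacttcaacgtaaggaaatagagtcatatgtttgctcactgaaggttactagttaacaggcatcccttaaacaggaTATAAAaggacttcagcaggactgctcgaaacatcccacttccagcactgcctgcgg
Gpc3 promoter: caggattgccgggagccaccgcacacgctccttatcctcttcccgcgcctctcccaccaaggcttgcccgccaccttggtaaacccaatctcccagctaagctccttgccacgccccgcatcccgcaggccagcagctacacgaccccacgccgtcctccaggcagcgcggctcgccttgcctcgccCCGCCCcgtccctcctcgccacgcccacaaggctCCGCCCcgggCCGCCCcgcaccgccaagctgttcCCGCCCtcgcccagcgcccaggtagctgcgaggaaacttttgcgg
The *Afp* window was 40.0% G and C with 3 CpG, and the *Gpc3* window 70.7% with 30 CpG, where the median of 32851 promoter windows was 52.7% and 7 CpG. The *Afp* window held 1 match of the TATA box and none of the SP1 box, and the *Gpc3* window 4 matches of the SP1 box and none of the TATA box. Of all promoter windows, 13.6% held TATAAA and 35.7% the SP1 box. No matches overlapped each other, and a match is not evidence of binding.

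The libraries held 11697049 to 16827147 reads on genes, so that 1 read was worth 0.0594 to 0.0855 CPM, the counts of a gene per 1000000 reads on genes (scaled between libraries with TMM). *Cideb* was at 2.22 to 7.57 CPM in the 10 WT livers and at 0 to 0.399 CPM in the 10 KO livers, so the targeted gene separated the labels. On CDA-HFD, KO liver 5 grouped with WT on principal component 1 of the 10 livers, with 66.9% of the variance. It was at -27.4 there, against -46.7 to -4.68 in WT livers and 30.7 to 45.7 in the other KO livers, although its *Cideb* was at 0.06 CPM. Results that rest on it are given with and without it. Nothing states whether the livers of a group were processed apart, so errors cover the spread between these livers only. In bulk liver RNA, more cells of a type and more RNA per cell cannot be told apart.

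*H19* was the member that separated the genotypes on CDA-HFD. The WT livers held 24.3, 10.7, 27.1, 30.3 and 13.8 CPM, from 152 to 490 reads a liver. The KO livers held 3.14, 2.92, 1.86, 1.03 and 4.20 CPM, from 14 to 70 reads. All 5 KO livers were below all 5 WT livers, with the lowest WT liver at over 2 times the highest KO liver. The log2 fold change was -3.00 ± 0.38 (standard error, SE), an 8.02-fold lower level in KO livers, and it stayed between -3.24 and -2.80 under the 17 other ways of scaling, filtering, testing and leaving out livers.

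KO liver 5 kept most of this difference. On a log2 scale its *H19* covered 69.1% of the distance between the mean of WT and that of KO livers 1 to 4, whereas its position on principal component 1 covered -4.56% of that distance. *Cd24a* in the same liver was at -6.18% and *Gpc3* at -58.3%, that is, on the far side of the WT mean. *H19* in this liver was thus below every WT liver on the diet, while *Cd24a*, *Gpc3* and component 1 lay within their WT ranges. This was not particular to *H19*, since 4.53% of the 17204 genes tested had all KO livers below all WT livers.

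On WD, *H19* fell into separate levels among the WT livers. WT livers 1 and 2 held 13.3 and 12.7 CPM, and WT livers 3, 4 and 5 held 0.605, 0.794 and 1.09 CPM, from 8 to 170 reads over the group. The KO livers held 2.39, 2.80, 2.61, 3.11 and 0.235 CPM, the last from 3 reads. The KO values lay between the 2 levels of the WT livers in 4 of 5 livers, and the groups overlapped. The log2 fold change of KO against WT was -1.35 with a standard error of 0.85, and -0.76 without WT liver 1.

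The 2 WT livers on WD with high *H19* differed from the other 3 in some, but not all, marker gene sums. The summed CPM of 12 cholangiocyte and progenitor markers was 200 and 179 in livers 1 and 2 and 52.8 to 89.4 in the other 3, and that of 9 neutrophil markers was 47.1 and 24.3 against 3.47 to 7.66. The summed CPM of 9 hepatocyte markers, led by *Alb*, was 60390 and 64700 in livers 1 and 2 and 73860 to 106100 in the others. The sum of cell cycle genes did not separate them (141 and 132 against 63.2 to 135 CPM). Neither did that of endothelial markers (744 and 745 against 710 to 776 CPM). The macrophage sum (1222 and 720 against 387 to 713 CPM) and the stellate cell and fibroblast sum (1333 and 1288 against 692 to 1236 CPM) did so narrowly. *Afp*, at 5.02 and 5.16 CPM, was also highest in these 2 livers of the group. The part of these cell types in the *H19* values was not tested.

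Between the diets, *H19* in WT livers was higher on CDA-HFD by 1.88 on the log2 scale, ± 0.71 (SE), and WT livers 1 and 2 on WD overlapped the CDA-HFD range. Without WT liver 1 on WD the log2 fold change was 2.47, and without WT liver 3 on WD it was 1.58. In KO livers it was 0.24 ± 0.50 (SE), and -0.05 without KO liver 5 on WD. The KO log2 fold change was -1.35 on WD and -3.00 on CDA-HFD, and the difference of the KO effects between the diets was -1.64 ± 0.99 (SE). *H19* was not among the 99 of 17804 genes, 0.556% of those tested, that passed the test of that difference.

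**Figure D1:**
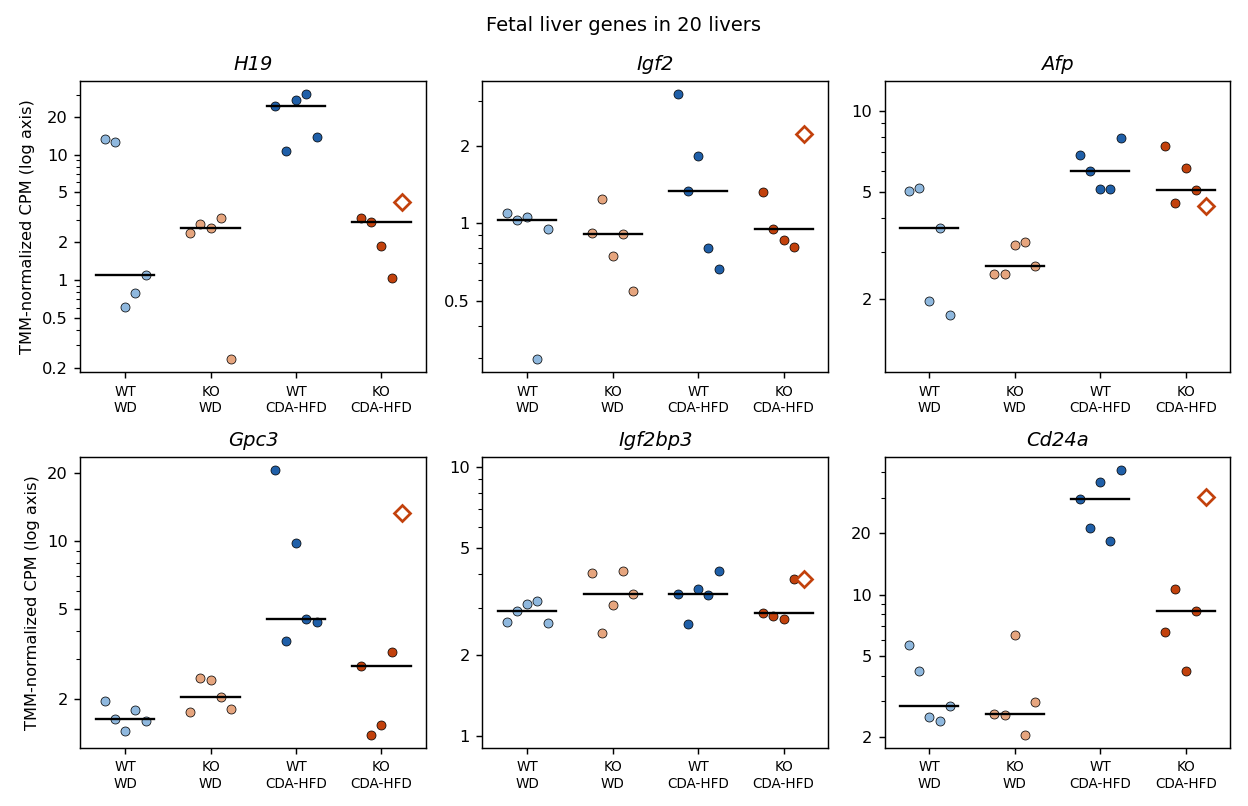
TMM-normalized CPM (log axis) of the 6 fetal liver genes in each of 20 livers, grouped by vector and diet, with livers 1 to 5 from left to right, a bar at the group median and KO liver 5 on CDA-HFD as an open diamond. *H19* on CDA-HFD was at 10.7 CPM or more in WT livers and at 4.20 CPM or less in KO livers, and *Igf2* and *Igf2bp3* overlapped in every comparison.

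*Igf2*, which shares an imprinted domain with *H19*, was near 1 CPM in most livers. The WT livers on WD held 1.10, 1.03, 1.06, 0.298 and 0.949 CPM and the KO livers on WD 0.920, 1.24, 0.746, 0.912 and 0.548 CPM. On CDA-HFD the WT livers held 3.18, 1.34, 1.82, 0.806 and 0.666 CPM and the KO livers 1.32, 0.951, 0.865, 0.809 and 2.22 CPM. The groups overlapped in every comparison, and the highest value on each vector came from CDA-HFD. The KO log2 fold change was -0.04 ± 0.32 (SE) on WD and -0.32 ± 0.44 (SE) on CDA-HFD. At 3 to 50 reads a liver, counting error alone gave a coefficient of variation of 19.7 to 30.9%. The spread between livers was 37.6 and 29.4% in WT and KO livers on WD, near the counting error, and 64.8 and 47.6% on CDA-HFD, above it. An annotated same-strand transcript, *Gm49394*, covers 62.8% of the *Igf2* exons and is not in the table, and how its reads were assigned is not stated.

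The 2 neighbors differed in level where *H19* was high. Per kilobase of exon, *H19* had a median of 9.87 CPM per kb in WT livers on CDA-HFD and *Igf2* 0.234. In WT livers on WD the medians were 0.445 and 0.180 CPM per kb, and in KO livers on CDA-HFD 1.19 and 0.166. Both were summed over the annotated exons, and *Igf2* shares most of its exons with the other transcript. Across the 20 livers the Pearson correlation of *H19* and *Igf2* was 0.52 (Spearman 0.46), and 0.45 after the group means were removed, over livers that share diets and vectors.

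*Afp* was higher on CDA-HFD on both vectors, and its KO and WT livers overlapped on each diet. The WT livers on WD held 5.02, 5.16, 1.97, 3.67 and 1.75 CPM and the KO livers on WD 2.48, 2.49, 3.17, 3.27 and 2.66 CPM. On CDA-HFD the WT livers held 6.86, 5.99, 5.14, 5.10 and 7.89 CPM and the KO livers 7.39, 4.56, 6.12, 5.07 and 4.44 CPM. All 5 KO livers on CDA-HFD were above all 5 KO livers on WD, and in WT livers the diets overlapped only through liver 2 on WD. The diet log2 fold change was 0.82 ± 0.29 (SE) in WT and 0.96 ± 0.19 (SE) in KO livers. The KO log2 fold change was -0.31 ± 0.30 (SE) on WD and -0.17 ± 0.19 (SE) on CDA-HFD. With 24 to 166 reads a liver, *Afp* stayed far below its relative *Alb*, which was at 23949 CPM or more in every liver.

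*Gpc3* differed widely among livers of the same group on CDA-HFD. The WT livers on WD held 1.96, 1.63, 1.44, 1.79 and 1.61 CPM and the KO livers on WD 1.75, 2.49, 2.42, 2.05 and 1.80 CPM. On CDA-HFD the WT livers held 20.6, 3.60, 9.78, 4.50 and 4.38 CPM and the KO livers 2.79, 1.39, 1.53, 3.23 and 13.3 CPM. All 5 WT livers on CDA-HFD were above all 5 WT livers on WD, with a log2 fold change of 2.33 ± 0.48 (SE). In KO livers the same difference was 1.09 ± 0.58 (SE) and 0.07 without KO liver 5. The KO log2 fold change on CDA-HFD was -0.94 ± 0.68 (SE), -1.94 without KO liver 5 and -0.33 without WT liver 1, the liver at 20.6 CPM. Without KO liver 5 the groups no longer overlapped, in a comparison where 7201 of 17411 genes passed edgeR's test. The share of all genes without overlap in it was not counted. The KO log2 fold change was 0.32 ± 0.18 (SE) on WD. Within the WD groups the standard deviation of *Gpc3* was 11.7% of the mean in WT and 16.3% in KO livers, below the counting error of 22.1 and 19.9%.

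*Igf2bp3* was even across all groups. On WD it ranged from 2.63 to 3.17 CPM in WT and 2.41 to 4.10 CPM in KO livers. On CDA-HFD it ranged from 2.61 to 4.09 CPM in WT and from 2.73 to 3.84 CPM in KO livers. Its 4 log2 fold changes lay between -0.09 and 0.23, with standard errors of 0.15 to 0.20, and the groups overlapped in each. Of its exonic length, 18.7% overlaps *Malsu1* on the opposite strand, and whether the counting used strand is not stated in the sources used here.

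*Cd24a*, the member that also marks bile duct cells, had the largest diet difference. The WT livers on WD held 5.64, 4.21, 2.50, 2.38 and 2.85 CPM and the KO livers on WD 2.58, 2.57, 6.34, 2.05 and 2.98 CPM. On CDA-HFD the WT livers held 29.5, 21.3, 35.6, 18.4 and 41.0 CPM and the KO livers 6.55, 10.7, 4.19, 8.31 and 30.4 CPM. All 5 WT livers on CDA-HFD were above all 10 livers on WD, and among the KO livers on CDA-HFD only liver 5 reached the WT range. In WT livers the diet log2 fold change was 3.04 ± 0.29 (SE), an 8.22-fold higher level, and in KO livers it was 1.88 ± 0.53 (SE) and 1.17 without KO liver 5. The KO log2 fold change was -0.10 ± 0.34 (SE) on WD and -1.28 ± 0.46 (SE) on CDA-HFD. Without KO liver 5 the last was -1.98.

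The order of the members by level per length depended on the group. In WT livers on CDA-HFD the median levels were 11.4 CPM per kb for *Cd24a*, 9.87 for *H19*, 1.78 for *Afp*, 1.67 for *Gpc3*, 0.413 for *Igf2bp3* and 0.234 for *Igf2*. *Cd24a* and *H19* overlapped in their ranges (7.13 to 15.9 and 4.36 to 12.3 CPM per kb), as did *Afp* and *Gpc3*. In KO livers on CDA-HFD the order was *Cd24a* at 3.22, *Afp* at 1.51, *H19* at 1.19, *Gpc3* at 1.04, *Igf2bp3* at 0.350 and *Igf2* at 0.166 CPM per kb. *H19* stood above *Afp* in the WT livers and below it in the KO livers on that diet, where its range of 0.418 to 1.71 overlapped those of *Afp* and *Gpc3*.

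**Figure D2:**
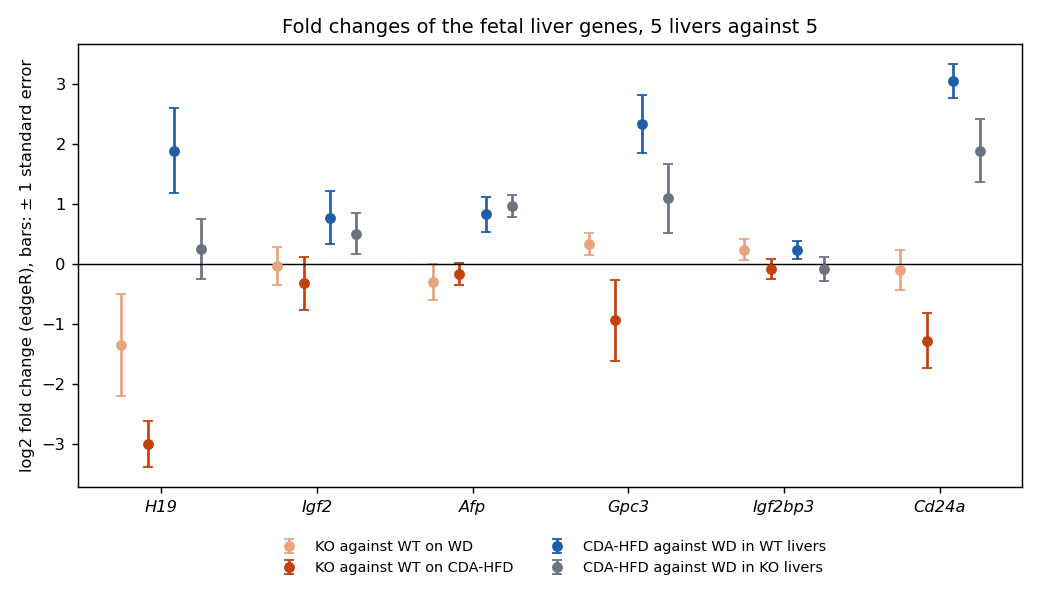
Log2 fold changes of the 6 fetal liver genes in 4 comparisons of 5 livers against 5 (edgeR), with bars of 1 standard error. *H19* was the lowest point, at -3.00 for KO against WT on CDA-HFD, and *Cd24a* the highest, at 3.04 for CDA-HFD against WD in WT livers.

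All 6 members passed the filter on low counts in every comparison, and their counts are set here beside those of all genes tested with edgeR's quasi-likelihood test and Benjamini-Hochberg adjustment. For KO against WT on WD, 0 of the 6 passed, where 0.0757% of 15848 genes did. None did so by DESeq2 or at an unadjusted p under 0.05. For KO against WT on CDA-HFD, 1 of the 6, *H19*, was lower, where 15.5% of 17204 genes passed and 7.29% passed as lower. Its groups did not overlap, as was the case with a lower KO group for 4.53% of genes. For CDA-HFD against WD, 4 of 6 were higher in WT livers, where 25.9% of 16726 genes passed as higher and 51.1% in either direction, and 2 of 6 in KO livers, where 9.19% of 16387 genes passed as higher and 17% in either direction. Groups did not overlap for *Gpc3* and *Cd24a* in WT livers, with 19.3% of all genes higher without overlap, and for *Afp* in KO livers, with 8.09%. The 2 diet comparisons and the 2 KO comparisons share livers. The median log2 fold change of the 6 members was -0.07 and -0.63 for KO against WT on WD and CDA-HFD and 1.35 and 0.73 for CDA-HFD against WD in WT and KO livers. The medians of all genes tested lay between -0.0032 and 0.012. In the test of the difference of the KO effects, 0 of the 6 passed with edgeR, 0 at an unadjusted p under 0.05 and 0 of the 5 tested by DESeq2. Since the members were chosen on these data, nothing is read from these counts.

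*Cd24a* and *Gpc3* were set beside the cholangiocyte and progenitor markers, and *H19* too, because livers on CDA-HFD differed in these markers. The summed CPM of the 12 markers was 425 to 881 in WT livers on CDA-HFD, 100 to 226 in KO livers 1 to 4 and 757 in KO liver 5, against 52.8 to 200 on WD. In the KO livers on CDA-HFD the largest part of this sum was *Spp1*. It was at 50.2 to 134 CPM in KO livers 1 to 4 and at 561 CPM in KO liver 5, so the sum weighs this gene most. In WT livers 11 of the 11 markers tested were higher on CDA-HFD (edgeR, adjusted over all genes), among them the progenitor surface protein gene *Prom1* with a log2 fold change of 2.83 ± 0.25 (SE, edgeR adjusted p = 1.26e-05). For KO against WT on CDA-HFD, 1 of 11, the mucin gene *Muc1*, was lower, and 10 were without KO liver 5. Without that liver 7201 of 17411 genes passed, 3795 of them as lower, against 2664 of 17204 with it, 1255 of them as lower. *Cd24a* ranked the livers much like the markers did, and *Gpc3* was at 3.60 CPM or more in the 6 livers with a marker sum of 425 or more and at 3.23 CPM or less in the others. *H19* in KO liver 5, at 4.20 CPM with a marker sum of 757, was below WT livers 1 and 2 on WD, which held 13.3 and 12.7 CPM with marker sums of 200 and 179. The part of cholangiocytes in the *H19*, *Gpc3* and *Cd24a* values was not tested.

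**Figure D3:**
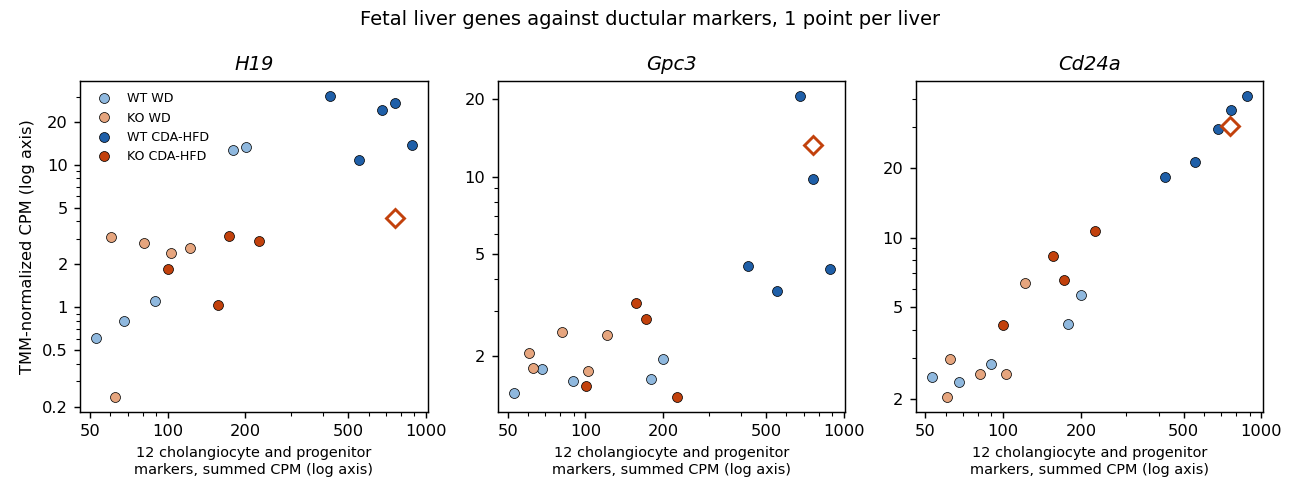
CPM of *H19*, *Gpc3* and *Cd24a* (log axis) against the summed CPM of 12 cholangiocyte and progenitor markers (log axis), with 1 point for each of 20 livers and KO liver 5 on CDA-HFD as an open diamond. *Cd24a* climbed with the marker sum across all groups, whereas *H19* in KO liver 5 lay at 4.20 CPM beside WT livers at 10.7 CPM or more. *Spp1* gave 561 of the 757 CPM of the marker sum in KO liver 5.

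Other cell types moved with the same groups. Of 13 stellate cell and fibroblast markers, 12 were higher on CDA-HFD in WT livers, and 3 were lower in KO than in WT livers on CDA-HFD (11 without KO liver 5). Of all genes, 25.9% passed as higher in the first comparison and 7.29% as lower in the second. Without KO liver 5, 3406 of 17411 genes passed as higher and 3795 as lower in the second. The summed CPM of the 13 markers was 2610 to 4404 in WT livers, 1430 to 1638 in KO livers 1 to 4 and 4613 in KO liver 5. Of 8 neutrophil markers tested, 6 were lower in KO livers on CDA-HFD, led by *S100a8* with a log2 fold change of -2.90 ± 0.39 (SE, edgeR adjusted p = 0.00578). Their sum in KO liver 5, 15.8, was below the WT range of 22.8 to 93.2 CPM and above the 3.59 to 5.66 CPM of the other KO livers. Of the 9 markers, 5 were below the WT range in this liver, among them *S100a8* and *S100a9*, and 4 were within it, among them *Ltf* at 2.82 CPM and *Ngp* at 3.54 CPM. The 6 lower markers became 8 without KO liver 5 and 2 without KO liver 1. The sum of 9 hepatocyte markers was 32860 to 71420 in WT livers, 73520 to 105100 in KO livers 1 to 4 and 37450 in KO liver 5. Of the remaining lists, 4 of 9 macrophage markers and 10 of 14 cell cycle genes were lower in KO livers on CDA-HFD, and 1 of 4 erythroid markers was higher. The macrophage count was 6 without KO liver 5 and 0 without WT liver 3 or without KO liver 1, 2 or 3, and the cell cycle count 10 and as low as 6. The macrophage marker sum in KO liver 5, 2046 CPM, was within the WT range of 1710 to 3606 CPM, while KO livers 1 to 4 were at 591 to 738 CPM. Of 7 endothelial and 7 B cell markers 0 passed with edgeR or DESeq2, and 3 and 2 did at an unadjusted p under 0.05. Without KO liver 5, 5 endothelial markers were higher and 1 B cell marker lower. The part of these cells in the members' values was not tested.

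Of the known controllers of the fetal genes, *Zhx2* was modestly higher in KO livers on CDA-HFD. The WT livers on CDA-HFD held 31.7, 29.9, 27.7, 28.4 and 32.4 CPM and the KO livers 34.9, 43.1, 40.6, 44.8 and 33.2 CPM. The groups did not overlap, but only narrowly, with 32.4 CPM in the highest WT liver and 33.2 CPM in the lowest KO liver. The log2 fold change was 0.38 ± 0.099 (SE, edgeR adjusted p = 0.0284), which passed in 9 of 17 alternatives and was 0.18 with library size only (edgeR adjusted p = 0.265). On WD it was 0.14 ± 0.10 (SE, edgeR adjusted p = 0.64), and the difference between the diets was 0.25 ± 0.14 (SE, edgeR adjusted p = 0.416). *Zbtb20*, the other postnatal repressor of *Afp*, was at 656 to 1106 CPM and did not pass in any comparison, with a log2 fold change of 0.08 ± 0.15 (SE, edgeR adjusted p = 0.74) for KO against WT on CDA-HFD that turned to -0.11 with library size only. *Afp*, the shared target of both, differed least between KO and WT livers on that diet among the members after *Igf2bp3*. For *H19* and *Gpc3*, on which Zhx2 also acts, the log2 fold changes were -3.00 and -0.94. The part of Zhx2 and Zbtb20 in the members' values was not tested.

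Of 20 listed repressors and activators of the fetal program, 8 were higher and 2 lower in KO livers on CDA-HFD. Of all genes, 8.19% passed as higher and 7.29% as lower. The count of higher genes in the list was 6 with library size only, 11 without KO liver 5 and as low as 4 without another liver. Without KO liver 5, 3406 of 17411 genes passed as higher. The 8 include activators of adult hepatocyte genes, *Hnf4a*, *Foxa1*, *Foxa2*, *Cebpa* and *Onecut1*, beside *Zhx2* and *Zhx3*, and the 2 lower genes were the DNA methyltransferase gene *Dnmt1* and *Trp53*. *Foxa2*, a pioneer factor of liver genes, was at 9.39 to 13.4 CPM in WT and at 43.2, 24.5, 39.2, 37.5 and 17.9 CPM in KO livers, higher by 1.61 on the log2 scale, ± 0.23 (SE, edgeR adjusted p = 0.00733). In WT livers it was lower on CDA-HFD than on WD by 1.56 on the log2 scale, ± 0.16 (SE, edgeR adjusted p = 2.46e-05). In that comparison, where 51.1% of all genes passed and 25.9% passed as higher, 4 of the 20 were higher and 9 lower, or 8 and 6 with library size only. On WD, 0 of the 20 passed between KO and WT livers with edgeR, also at an unadjusted p under 0.05.

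Among the receptors, carriers and mRNA-binding proteins of the IGF2 pathway, *Igf2bp2*, the paralog of *Igf2bp3*, was lower in KO livers on CDA-HFD. The WT livers held 8.01, 3.74, 4.20, 4.50 and 5.75 CPM and the KO livers 3.00, 3.42, 2.33, 2.06 and 3.42 CPM, without overlap. The log2 fold change was -0.88 ± 0.24 (SE, edgeR adjusted p = 0.0332) and passed in 10 of 17 alternatives, the other 7 being fits without 1 liver. In KO livers *Igf2bp2* was lower on CDA-HFD than on WD by 1.25 on the log2 scale, ± 0.25 (SE, edgeR adjusted p = 0.00726). The difference of the KO effects between diets was -1.28 ± 0.35 (SE, edgeR adjusted p = 0.103). The third paralog, *Igf2bp1*, was at 0.826 CPM or less and was not tested.

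The IGF receptors differed in pattern. *Igf2r*, which carries IGF2 to lysosomes, ranged from 149 to 203 CPM over the 20 livers and did not pass in any comparison. *Igf1r*, the signaling receptor, was at 15.8 to 17.2 CPM in WT livers on WD and at 23.5 to 45.4 CPM on CDA-HFD, higher by 1.02 on the log2 scale, ± 0.16 (SE, edgeR adjusted p = 0.000362). Between KO and WT livers on CDA-HFD its log2 fold change was -0.25 ± 0.31 (SE, edgeR adjusted p = 0.579), with KO liver 5 at 54.1 CPM and the other KO livers at 16.5 to 24.9 CPM, and -0.64 without KO liver 5 (edgeR adjusted p = 0.0253). Of the 15 genes of this list tested, 2 were higher (the binding protein gene *Igfbp4* and *Igfals*) and 1 lower (*Igf2bp2*) in KO livers on CDA-HFD. In this comparison 15.5% of all genes passed, 8.19% as higher and 7.29% as lower. The counts became 4 and 7 without KO liver 5 and 0 and 0 without KO liver 1. Those 2 fits passed 7201 of 17411 and 709 of 17623 genes. *Igfbp4* had a log2 fold change of 0.67 ± 0.16 (SE, edgeR adjusted p = 0.0222). On WD 0 of 15 passed with edgeR, and 5 did at an unadjusted p under 0.05.

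Of the glypicans, the family of *Gpc3*, *Gpc6* was lower in KO livers on CDA-HFD by 0.83 on the log2 scale, ± 0.16 (SE, edgeR adjusted p = 0.0142) and *Gpc4* higher by 0.50 ± 0.099 (SE, edgeR adjusted p = 0.0147). *Gpc4* was at 87.8 CPM or more in every liver and is thus a more abundant glypican transcript than *Gpc3*, which was at 20.6 CPM or less, on the CPM scale without regard to length. *Gpc1* passed the test of the difference of the KO effects between diets, at 2.32 on the log2 scale, ± 0.41 (SE, edgeR adjusted p = 0.0148). Its KO log2 fold change was -1.82 ± 0.34 (SE, edgeR adjusted p = 0.106) on WD. On CDA-HFD it was 0.49 ± 0.175 (SE, edgeR adjusted p = 0.0758), so neither passed on its own. In the albumin family, where *Afp* belongs, 0 of the 3 others tested (*Alb*, *Afm* and *Gc*) passed between KO and WT livers on CDA-HFD with edgeR or DESeq2, and 1, *Afm*, did at an unadjusted p under 0.05. In WT livers *Afm* and *Gc* were lower on CDA-HFD, *Gc*, the vitamin D-binding protein gene, by 0.55 on the log2 scale, ± 0.18 (SE, edgeR adjusted p = 0.025), the direction opposite to that of *Afp*, but neither passed with library size only.

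Other oncofetal genes and fetal isozymes, in a list of 12 tested genes, were higher on CDA-HFD in 9 cases in WT livers and lower in KO livers on CDA-HFD in 4, among them *Golm1*, *Igdcc4* and *Spink1*. Of all genes, 25.9% passed as higher in the first comparison and 7.29% as lower in the second. The second count was 2 with library size only, 8 by DESeq2, 11 without KO liver 5 and as low as 1 without another liver. Without KO liver 5, 3795 of 17411 genes passed as lower. *Spink1*, a secreted trypsin inhibitor gene, was at 0.829 to 2.62 CPM in WT and 0.147 to 0.720 CPM in KO livers, lower by 1.97 on the log2 scale, ± 0.43 (SE, edgeR adjusted p = 0.0177) and, like *H19*, without overlap. *Tspan8* was higher on CDA-HFD in WT livers by 3.97 on the log2 scale, ± 0.42 (SE, edgeR adjusted p = 3.39e-05). The RNA-binding protein gene *Lin28b*, which blocks let-7 in fetal cells, had 1 read at most in any liver and was not tested. Of 5 genes tested around LIN28 and let-7, 0 passed between KO and WT livers on CDA-HFD with edgeR or DESeq2, and 1, *Hmga1*, did at an unadjusted p under 0.05.

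Imprinted genes of other loci moved in both directions. Of 17 genes of the imprinted network tested, 4 were higher and 3 lower in KO livers on CDA-HFD (4 and 8 without KO liver 5), and 10 were higher and 4 lower on CDA-HFD in WT livers. Of all genes, 15.5% passed in the first comparison and 51.1% in the second. Without KO liver 5, 7201 of 17411 genes passed in the first. *Meg3*, a maternally expressed noncoding RNA like *H19*, went the opposite way, from 27.9 to 47.5 CPM in WT to 190 to 286 CPM in KO livers on CDA-HFD, against 0.545 to 1.44 CPM on WD. Its log2 fold change for KO against WT on CDA-HFD was 2.59 ± 0.18 (SE, edgeR adjusted p = 0.00027). *Dlk1*, its paternally expressed neighbor, was at 0.826 CPM or less and was not tested.

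**Figure D4:**
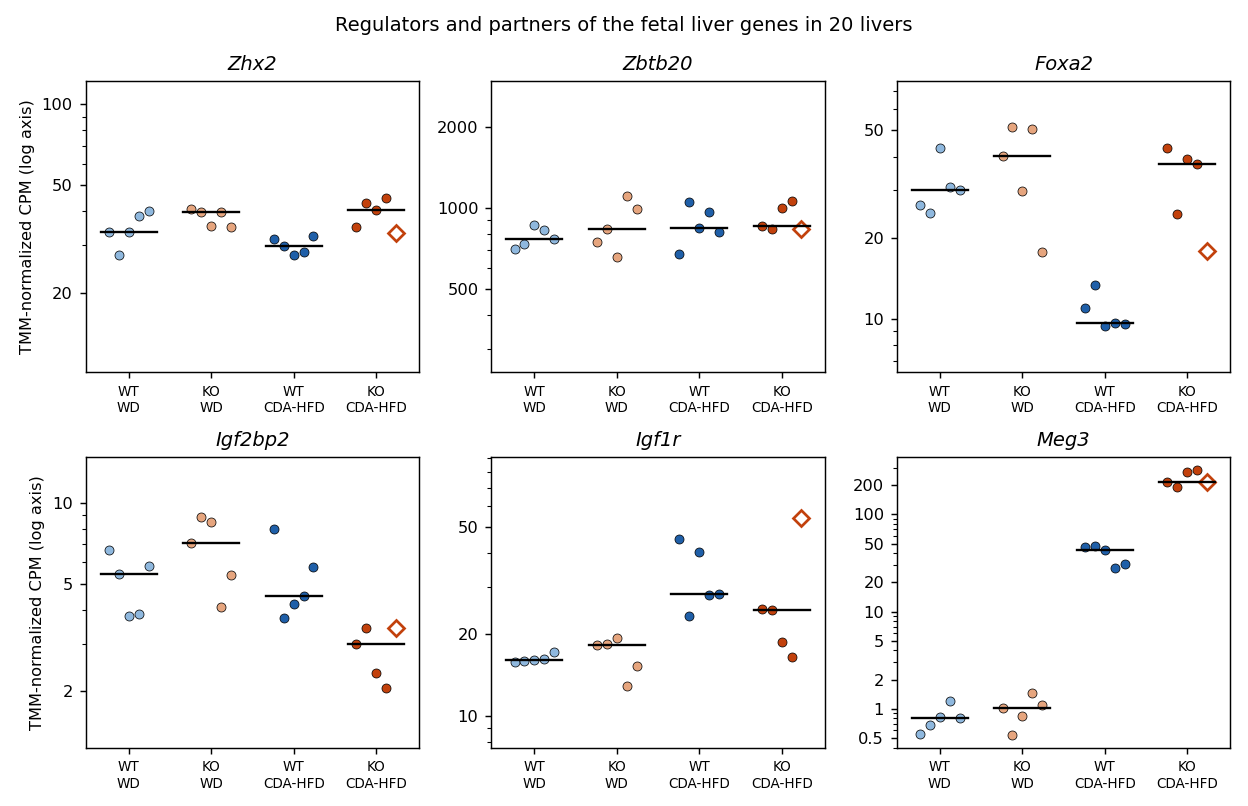
TMM-normalized CPM (log axis) of *Zhx2*, *Zbtb20*, *Foxa2*, *Igf2bp2*, *Igf1r* and *Meg3* in 20 livers, with livers 1 to 5 from left to right, group medians as bars and KO liver 5 on CDA-HFD as an open diamond. On CDA-HFD, KO livers lay above WT livers for *Zhx2*, *Foxa2* and *Meg3* and below them for *Igf2bp2*, without overlap, and *Zbtb20* overlapped throughout. On that diet 4.53% of all genes tested had KO livers below WT livers without overlap. The share with KO livers above is not given here.

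Among 11034 genes of moderate or high level, those with the pattern most like each member over the 20 livers differed from member to member. For *Cd24a* they were the epithelial transcription factor gene *Ehf* (Pearson r = 0.98, Spearman 0.97), *Prom1* (r = 0.98) and *Enah* (r = 0.98). For *Gpc3* they were *Lix1l* (r = 0.96), *Gabra3* (r = 0.96) and *Mamdc2* (r = 0.94, Spearman 0.67). For *H19* they were *Cystm1* (r = 0.88, Spearman 0.87), *Cyp4f16* (r = 0.86) and *Rragd* (r = 0.85). After the 4 group means were removed these *H19* values were 0.78, 0.73 and 0.76. For *Afp* they were the centriole gene *Cenpj* (r = 0.89), the cytokine gene *Il15* (r = 0.88) and *Cib3* (r = 0.87). For *Igf2* the closest was *Fam76a* (r = 0.84, Spearman 0.66), which stayed at 0.84 after the group means were removed. For *Igf2bp3* it was *Zxdb* (r = 0.73), at 0.70 after the group means were removed. Both members had low counts, and how high the best of 11034 genes would correlate by chance was not tested. No gene was among the 3 of more than 1 member, and the livers share diets and vectors.

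Between the members themselves the highest Pearson correlation over the 20 livers was that of *Gpc3* and *Cd24a* (r = 0.81, Spearman 0.68), which was 0.59 after the group means were removed. *Igf2* and *Gpc3* were at 0.71 (0.66 after the group means were removed), but at 0.34 by Spearman's rank. *H19* and *Cd24a* were also at 0.71 (Spearman 0.69), and at 0.38 after the group means were removed. *H19* and *Afp* were at 0.64, and after the group means were removed at 0.52 over the 20 livers, 0.71 over the 10 livers on WD and -0.29 over the 10 on CDA-HFD. Neither of the last 2 values was tested against 0, nor was their difference. On WD, WT livers 1 and 2 were the highest of their group for both genes.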

How the data were processed

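Bulk RNA-seq of mouse liver was measured in 20 samples, and the series holds 1 combined table. Per the labels, directional libraries were made, while the study's methods name another kit and 75 bp single-end reads, so whether the counting used strand is not stated. The deposited values are whole-number counts of reads per gene that the authors made without normalization. The submitters' processing notes name mm10, and the aligner and counter are not given in the sources used here. Reads assigned to no gene, 20.7 to 28.8% of all entries, and 4 other summary entries stayed out of library sizes and tests.

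The members and all gene lists were chosen with earlier results of these data known. From the counts, genes were filtered with filterByExpr, scaled with TMM and tested with edgeR 4.0.16 (R 4.3.3) by the quasi-likelihood F test on the 10 livers compared, or on all 20 for the difference of the KO effects, with Benjamini-Hochberg adjustment over all genes tested and a threshold of 0.05. CPM were scaled with TMM over the 20 livers. DESeq2 1.42.0 and other scalings and filters were alternatives. Genes named were the members, 10 fixed partners, from each list the gene with the smallest adjusted p for KO against WT on CDA-HFD and for CDA-HFD against WD in WT livers, and the 3 genes most like each member among those with a mean log2 CPM of 2 or more (prior count 2). *Hnf4a*, *Foxa1*, *Cebpa*, *Onecut1*, *Zhx3*, *Dnmt1*, *Trp53*, *Gpc4* and *Gpc1* were named after their values were seen, and some list members are counted but not reported here. The 40 pairs of livers within groups differed by 6.94 to 124 times the sampling noise, so none was a copy of another. The fitting was tested on simulated data. Sequences are from RefSeq (GRCm38.p6), which matched the promoters of 4 of the 6 members, and figures were drawn with matplotlib 3.10.9.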

Additional observations from a re-analysis of the deposited data

Results flagged for a closer look

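Each group of 5 livers was searched for a liver whose gap to the nearest other liver took up more than 0.71 of the group's range, for the members and their fixed partners. This held in 12 of 63 groups. Chance gives about 5% for independent, normally distributed values, but these groups share livers, and in 2 of the 12, those of *Lin28b*, a single read sets the gap, so the count is not set against chance.

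Among the members, *H19* in KO liver 5 on WD lay at 0.235 CPM, against 2.39 to 3.11 CPM in the others (gap 0.749 of the range). *Igf2* in WT liver 4 on WD was at 0.298 CPM against 0.949 to 1.10 CPM (0.814), which rests on 3 reads. In KO liver 5 on CDA-HFD, *Gpc3* was at 13.3 CPM against 1.39 to 3.23 CPM (0.845) and *Cd24a* at 30.4 CPM against 4.19 to 10.7 CPM (0.751). *Cd24a* in KO liver 3 on WD was at 6.34 CPM against 2.05 to 2.98 CPM (0.784), and this liver also had the highest cholangiocyte and progenitor marker sum of its group, 121.5 CPM.

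Among the partners, *Igf2r* in KO liver 1 on WD was at 170.8 CPM against 149 to 155 CPM (0.729). *Igf1r* was at 17.2 CPM in WT liver 5 on WD against 15.8 to 16.2 CPM (0.716), and at 54.1 CPM in KO liver 5 on CDA-HFD against 16.5 to 24.9 CPM (0.778). In WT liver 1 on CDA-HFD, *Igf2bp1* was at 0.826 CPM (0.725) and *Dlk1* at 0.826 CPM (0.848), against 0.276 and 0.166 CPM at most in the other livers. *Lin28b* had 1 read in WT liver 3 on WD, in KO liver 5 on WD and in no other liver of either group (1 in both).

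The KO effect on *Meg3* differed between the diets, by 2.286 on the log2 scale (adjusted p = 0.00704 from edgeR's test of the difference), from 0.30 on WD to 2.59 on CDA-HFD.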

How the results depend on the processing

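The members were chosen on these livers, so the counts of members below are a description. The genes that passed for KO against WT on WD numbered 12, and 152 with DESeq2, 38 with no filter, 2 with the replicate number as a block, 26 with all 20 livers in the fit, and 1 to 33 with a liver left out. For KO against WT on CDA-HFD they numbered 2664, and 1709 with library size only, 4036 with DESeq2, 4170 with all 20 livers, and 709 to 7201 with a liver left out, the extremes being KO livers 1 and 5. They numbered 8542 for CDA-HFD against WD in WT livers (7549 to 8723 with a liver left out) and 2792 in KO livers (4476 with all 20 livers, 1568 to 2881). For the difference of the KO effects there were 99, and 44 with library size only, 405 with DESeq2, 52 with no filter, 63 with the block, and 35 to 2138. Members that passed rose from 1 to 2 for KO against WT on CDA-HFD with DESeq2, the block or all 20 livers (1 to 3 with a liver left out). They went from 4 to 6 with library size only and from 4 to between 2 and 4 with a liver left out for the diet in WT livers, from 2 to 1 with the block for the diet in KO livers (1 to 2), and were 0 to 2 for the difference. Library size only shifted the median log2 fold change of all genes to 0.42 for the diet in WT livers, 0.25 in KO livers and -0.19 for KO against WT on CDA-HFD. The genes passing then split into 9120 higher and 1570 lower (4335 and 4207 with TMM), 3371 and 553 (1506 and 1286), and 517 and 1192 (1409 and 1255). It turned *Zbtb20* for KO against WT on CDA-HFD to -0.11, *Zhx2* and *Igfbp4* for the diet in WT livers to 0.22 and 0.15, *Igf2bp3* for the diet in KO livers to 0.17 and *Afp* for the difference to -0.026, and the cause was not tested. With a liver left out, values near 0 changed sign and did not pass. For KO against WT on WD *Igf2* ran from -0.23 to 0.083 and *Cd24a* from -0.48 to 0.13. For KO against WT on CDA-HFD *Igf2* ran from -0.65 to 0.097 and *Zbtb20* from -0.0067 to 0.16. *Igf2bp2* for the diet in WT livers reached -0.16, and for the diet in KO livers *H19* ran from -0.055 to 0.44 and *Zhx2* from -0.014 to 0.084. In the difference *Afp* ran from -0.047 to 0.31 and *Igf2* from -0.61 to 0.14. The labels number livers 1 to 5 in every group, but same-numbered livers did not deviate together (correlations of -0.392 to 0.374), and 1 to 3 of 5 livers correlated best with their own number, so the block shares only a number. *Igf2* had 3 to 50 reads a liver, and on WD its spread between livers (37.6 and 29.4% in WT and KO) was near its counting error (30.5 and 30.9%).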
